A study of Mus musculus with 18 samples.

Results

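Axon guidance ligands and receptors were followed in RNA sequencing data from mouse brain and neural stem cells. Members were the genes whose symbols belong to the semaphorin, plexin, neuropilin, Eph receptor, ephrin, Robo, Slit, netrin, netrin-G, Unc5 and Dcc families, a rule that uses no measured value. The rule found 72 of the 32941 genes in each table. They were 20 semaphorins, 14 Eph receptors, 9 plexins, 8 ephrins, 5 genes of the Unc5 and Dcc group, 4 netrins, 4 Robos, 3 Slits, 2 neuropilins, 2 netrin-G genes and 1 antisense RNA, Plxna4os1, whose symbol begins like that of a plexin. The study concerned peroxisomal ether lipids in the developing cortex. It held 18 libraries in 4 separately normalised tables. The first table had wild-type brain at embryonic days 11, 12, 13, 14, 16 and 18 (E11 to E18), with 1 library per stage, although the design text speaks of cortex and of triplicates. The second had primary neural stem cells labelled PEX7-knockdown (NSC-Pex7sh) and wild-type cells named NSC-Scramble. The other two tables had brain labelled PLAAT3-PEX11 overexpression, named PLA1 and Neuron-PLA, and wild-type brain, named Ctrl1 and Neuron-ctrl. Each of these 6 groups had 2 libraries. The labels give neither the age of the overexpression brains, nor the promoter or route by which the construct was expressed, nor how neurons were obtained.

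Growing axons are steered by extracellular cues that attract or repel the growth cone. Ephrins are membrane-bound ligands of the Eph receptor tyrosine kinases, and both partners can signal into their own cell. Secreted class 3 semaphorins act through neuropilins and plexins, most other semaphorins bind plexins directly, Slits act through Robos, and netrins attract through Dcc or repel through Unc5 receptors. In the developing cortex the same families also act on progenitors, migrating neurons, synapses and blood vessels.

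Expression values were RPKM, that is reads scaled to exon length and sequencing depth. Exon lengths were merged over the annotated transcripts of a gene, so comparisons of level between genes depend on the annotation. Read totals recovered from the values ran between 41501879 and 54373316 for stages, and between 16147910 and 28104927 for the remaining 12 libraries. Pex7 and Plaat3, the targeted genes checked here, followed the labels. Pex7 had 0.500 and 0.669 RPKM in NSC-Pex7sh, against 1.19 and 1.22 RPKM in NSC-Scramble. Plaat3 had 31.4 and 29.1 RPKM in PLA1, against 0.413 and 0.431 RPKM in Ctrl1. In the neuron set it had 19.01 and 20.8 RPKM in Neuron-PLA, against 0.0699 and 0.230 RPKM in Neuron-ctrl. The sum of 8 midbrain and hindbrain genes chosen after the data had been seen, such as En1 and Hoxb2, was at most 0.185 RPKM in the stage libraries. Forebrain genes such as Emx1 summed to 252.9 RPKM at E11 and 673.1 RPKM at E14, the lowest and highest stages. With genes chosen that way, these sums are only a description and cannot check the tissue label. Endothelial markers summed to 33.3 to 59.5 RPKM in the stage libraries but to at most 2.09 RPKM in PLA1 and Ctrl1, which carry the same tissue label. The stem cell libraries held pan-neuronal markers at 1618 to 2157 RPKM beside radial glia markers at 1011 to 1423 RPKM. Whether libraries of a group derive from different animals or cultures is not in the labels. The p-values thus measure only how far these libraries scatter, which could be technical scatter. Reads from genes that overlap a member's exons could not be told apart, since the strand setting of the counting is not given in the sources used here. The overlap exceeded 10% of exon length for Ntn5, Efna3, Ntng2, Plxna1 and Efna4.

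The promoters of 4 members are shown because these genes stood at opposite ends of the stage series or differed between PLA1 and Ctrl1. Efnb1 encodes ephrin-B1 and Sema5b a transmembrane semaphorin with thrombospondin repeats; both were highest early and both were higher in PLA1 than in Ctrl1. Sema7a encodes a membrane-anchored semaphorin and Unc5a a netrin receptor; both were highest at E18, and Unc5a was lower in PLA1. Sequences are from RefSeq, build GRCm38.p6, on the plus strand, from 250 bases before to 50 bases after the RefSeq transcription start, and 61 of the 72 members had an entry. The windows lie at chrX:99135811-99136110, chr16:35541112-35541411, chr9:57939862-57940161 and chr13:54949161-54949460, in the order printed. The RefSeq start and the gene start of the GENCODE annotation lay 69 bases apart for Efnb1 and 217 for Sema5b, and coincided for Sema7a and Unc5a. Capitals mark matches on either strand to the GC box GGGCGG, the CCAAT box and the TATA box TATAAA, and matches of 1 motif that share a base were counted separately.
Efnb1: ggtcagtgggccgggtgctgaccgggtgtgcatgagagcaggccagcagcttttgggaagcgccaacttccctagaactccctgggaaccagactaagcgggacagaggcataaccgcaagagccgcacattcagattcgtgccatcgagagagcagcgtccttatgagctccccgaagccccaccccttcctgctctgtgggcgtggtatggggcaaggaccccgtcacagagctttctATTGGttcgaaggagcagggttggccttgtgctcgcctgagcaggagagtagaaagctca
Sema5b: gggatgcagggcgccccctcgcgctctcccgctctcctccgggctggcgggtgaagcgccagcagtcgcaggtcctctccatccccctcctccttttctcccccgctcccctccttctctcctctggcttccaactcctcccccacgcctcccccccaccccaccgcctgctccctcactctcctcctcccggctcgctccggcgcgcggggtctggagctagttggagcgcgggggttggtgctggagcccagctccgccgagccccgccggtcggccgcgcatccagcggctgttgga
Sema7a: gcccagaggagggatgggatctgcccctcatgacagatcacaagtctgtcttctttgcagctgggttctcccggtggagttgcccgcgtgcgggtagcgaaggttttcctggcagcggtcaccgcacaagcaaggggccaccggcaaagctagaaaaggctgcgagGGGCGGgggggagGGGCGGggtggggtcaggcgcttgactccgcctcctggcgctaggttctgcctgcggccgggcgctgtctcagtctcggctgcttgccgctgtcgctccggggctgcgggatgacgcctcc
Unc5a: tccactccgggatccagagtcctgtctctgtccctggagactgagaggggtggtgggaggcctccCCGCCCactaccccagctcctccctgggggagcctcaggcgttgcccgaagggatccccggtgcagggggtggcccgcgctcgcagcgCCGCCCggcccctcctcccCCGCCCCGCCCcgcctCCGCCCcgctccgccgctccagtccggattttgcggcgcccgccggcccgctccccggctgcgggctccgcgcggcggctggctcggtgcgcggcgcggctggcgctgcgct
GC boxes stood once or more in the windows of Sema7a, with 2 matches, and Unc5a, with 5, and not in those of Efnb1 and Sema5b. The Efnb1 window held 1 CCAAT box, read on the minus strand, and none of these windows held TATAAA. The GC content was 59.7% for Efnb1, 73.0% for Sema5b, 67.3% for Sema7a and 78.3% for Unc5a. Over the 61 members, 44 windows held a GC box, 18 a CCAAT box and 2 TATAAA, while 35.9%, 37.4% and 13.6% of the 32544 promoters of the table held them. The sets are unlike: a member gave the 1 window nearest its GENCODE start, and the 32544 were all distinct windows. Some member windows lay far from that start, at 354843 bases for Robo1 and 271370 for Sema3a. These matches describe the letters of the windows and name no bound factor.

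Across the stages, guidance genes changed in both directions. Semaphorins, Eph receptors, ephrins, plexins and netrins each held members that rose and members that fell, and the other families did not hold both. Sema7a, Unc5a, Efna3, Sema6b, Ephb6 and Sema4f were several times higher at E18 than at E11, while Robo3, Efnb1, Ephb4, Sema5a, Ntn4, Sema5b and Ntn1 were several times lower. A line of log2(RPKM + 1) on embryonic day was fitted with limma over every gene averaging 1 RPKM or more, and a gene was called where the Benjamini-Hochberg adjusted p was under 0.05. Of 72 members, 56 were tested, 19 rose and 9 fell with day, and 28 did not pass. The share called was 50% of those tested, beside 45.1% of all 12921 genes tested, so the members were called about as often as genes in general. The rises made up 19.6% and the falls 25.5% of all genes. The median slope was 0.05 log2 units per day over the members tested and -0.02 over all genes. With 1 library per stage, the error of a slope is the scatter about the line, and the spread within a stage was not measured. In whole tissue, fewer cells of a type and less RNA per cell cannot be told apart.

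Other cell populations moved along with these slopes. Of 17 pan-neuronal markers, 13 rose and 0 fell, with a summed level of 1547 to 5034 RPKM over the stages. All 20 mitosis genes fell, with sums of 57.8 to 992.5 RPKM, and of 16 radial glia markers tested 10 fell and 2 rose, with sums of 703 to 1158 RPKM. Erythroid markers summed to 253 to 6759 RPKM, and 4 of 7 tested fell. Endothelial markers summed to 33.3 to 59.5 RPKM, and 2 of 7 tested rose. Microglia and macrophage markers rose for 8 of 10, with sums of 27.6 to 62.4 RPKM. Of 10 interneuron and ventral forebrain markers, 6 fell and 1 rose, at 265 to 403 RPKM, and astrocyte markers rose for 3 of 6 and fell for 1, at 33.0 to 205 RPKM. The part of these populations in the members' slopes was not tested.

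**Figure D1:**
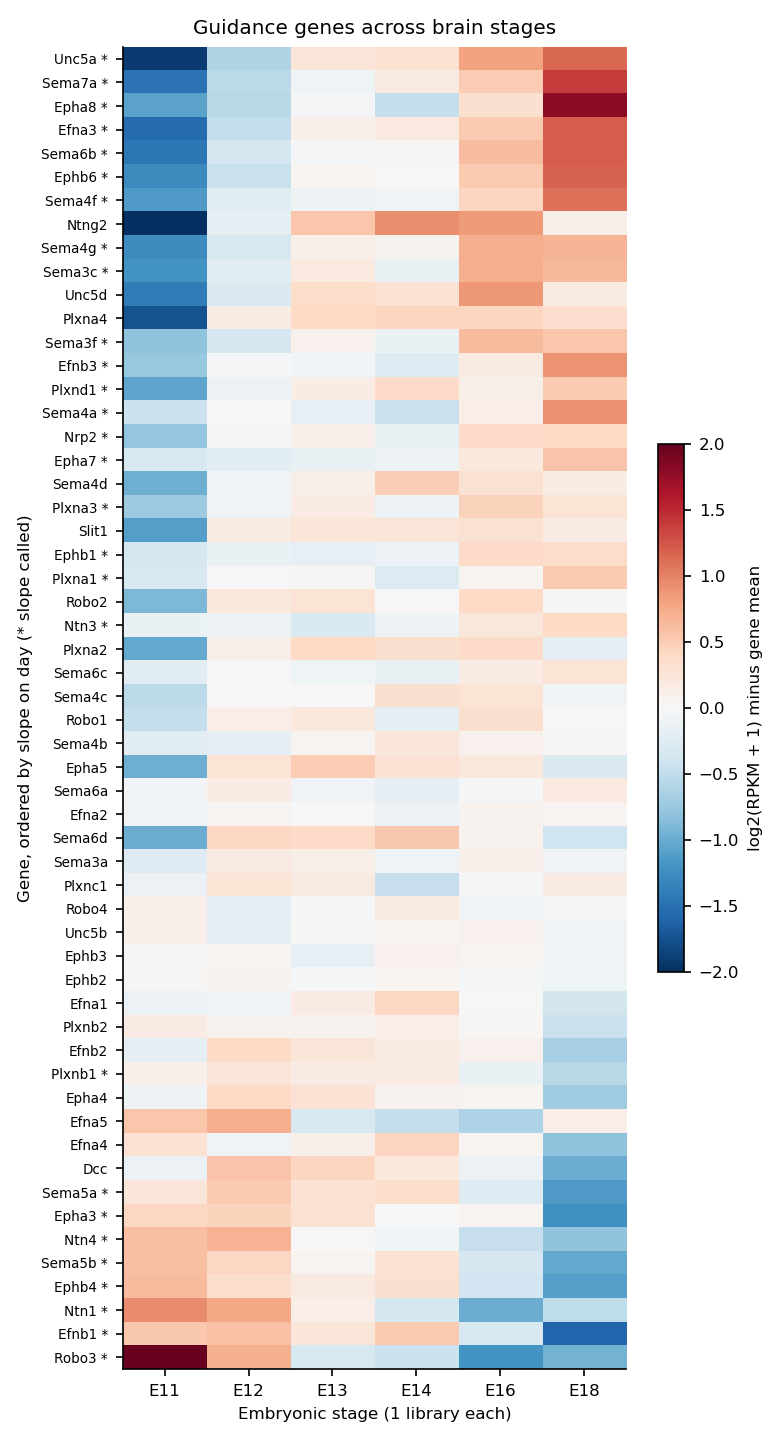
Colour shows log2(RPKM + 1) minus the gene's mean for the 56 tested members (rows, ordered by slope) in the 6 stage libraries (columns), with the scale ending at -2 and 2; an asterisk marks the 28 called slopes. Unc5a, Sema7a and Epha8 head the rising genes and Robo3, Efnb1 and Ntn1 end the falling ones.

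The ephrin-B ligands Efnb1 and Efnb3 had the highest mean levels of all members over the stages, and they exchanged places. In order from E11 to E18, Efnb1 had 87.7, 90.4, 70.98, 87.0, 48.1 and 19.3 RPKM. Efnb3, the ephrin-B known from midline barriers to corticospinal axons, had 30.5, 51.5, 50.2, 43.4, 59.1 and 97.8 RPKM. Efnb1 was thus above Efnb3 at E11 to E14 and below it at E16 and E18. Efnb2, which is also known from arteries, had 24.4, 37.2, 33.3, 31.1, 29.9 and 17.3 RPKM and did not pass (log2 -0.09 per day, limma adjusted p = 0.171). The slope was -0.29 ± 0.05 log2 per day (SE) for Efnb1, with a limma adjusted p of 0.00478. For Efnb3 it was 0.18 ± 0.04 (limma adjusted p = 0.00868). Both slopes rested on E18: without that library the same fit gave adjusted p-values of 0.0732 for Efnb1 and 0.140 for Efnb3.

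Of the lipid-anchored ephrin-A ligands, Efna3 alone was called. Its values were 5.32, 11.99, 18.7, 20.1, 25.3 and 41.4 RPKM, higher at each step, and its slope was 0.33 ± 0.05 log2 per day (limma adjusted p = 0.00248). Efna2 stayed between 24.2 and 27.8 RPKM, and Efna4 between 8.26 and 20.8 RPKM with its lowest value at E18. Efna1 and Efna5 ranged from 2.42 to 4.91 RPKM and from 1.09 to 4.31 RPKM, and none of these 4 slopes passed.

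Among Eph receptors, 4 rose and 2 fell of 10 tested. Ephb6, whose kinase domain is inactive, had 4.34, 8.48, 12.4, 11.8, 17.7 and 28.2 RPKM and became the highest Eph receptor at E16 and E18. Ephb4, best known as the venous partner of ephrin-B2, had 10, 8.13, 7.06, 7.93, 4.45 and 2.31 RPKM. The last value was 4.33-fold below the first. Epha3, a receptor of ephrin-A ligands, had 11.9, 12.2, 11.02, 8.74, 9.05 and 3.15 RPKM, with its lowest value at E18. Epha8 had 0.308, 0.869, 1.71, 0.959, 2.4 and 8.52 RPKM, so most of its rise came in the last library, and Epha7 had 3.15, 3.503, 3.71, 3.83, 5.004 and 6.75 RPKM. Ephb1, a receptor of ephrin-B ligands known from the optic chiasm, had 7.76, 9.12, 8.92, 9.16, 13.5 and 13.2 RPKM. Slopes per day were 0.31 for Ephb6, -0.23 for Ephb4, -0.21 for Epha3, 0.36 for Epha8, 0.13 for Epha7 and 0.11 for Ephb1 on the log2 scale. Their limma adjusted p-values lay between 0.00129 and 0.0101. The calls of Epha3, Epha7 and Epha8 were lost without E18, with adjusted p-values of 0.107, 0.0660 and 0.0512. Ephb2 showed little variation, at 11.4 to 12.8 RPKM over the stages, and Ephb3 lay at 2.46 to 3.12 RPKM. Epha4 reached 17.1 RPKM at E12 and had 7.48 RPKM at E18, and Epha5 ranged from 2.57 to 9.07 RPKM; neither passed.

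Semaphorins as a family summed to 119 RPKM at E11 and 255 RPKM at E18, and 7 rose and 2 fell of 16 tested. Sema7a, which binds Plxnc1 and integrins, had 5.95, 12.3, 17.2, 20.9, 26.6 and 50.1 RPKM. It was the most abundant semaphorin at E18 and had the smallest slope p-value of the members (log2 0.36 ± 0.04 per day, limma adjusted p = 0.0009796). Its receptor Plxnc1 ranged from 2.91 to 5.52 RPKM and did not pass (limma adjusted p = 0.915). Sema6b, a transmembrane ligand of A-type plexins, had 4.37, 10.4, 13.2, 13.7, 21.2 and 32.5 RPKM, and Sema4f had 1.43, 3.57, 3.96, 4.04, 6.17 and 10.4 RPKM. Both were higher at each step. Sema4g had 7.83, 15.9, 21.6, 21.2, 33.97 and 32.9 RPKM, and Sema4a, which also acts in immune cells, had 4.21, 5.96, 5.24, 4.16, 6.72 and 12.2 RPKM. The call of Sema4a was lost without E18 (limma adjusted p = 0.372) and without E11 (limma adjusted p = 0.0558).

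Class 5 semaphorins went the other way. Sema5b had 21.4, 18.8, 14.4, 17.04, 10.8 and 6.297 RPKM and Sema5a had 4.61, 5.76, 4.75, 5.03, 2.93 and 1.15 RPKM. Their slopes were -0.22 ± 0.03 and -0.21 ± 0.04 log2 per day, with limma adjusted p-values of 0.00169 and 0.00833, and that of Sema5a was 0.145 without E18. Of the secreted class 3, Sema3c had 0.941, 2.79, 4.08, 3.01, 6.36 and 5.93 RPKM and Sema3f had 4.801, 7.07, 9.71, 8.22, 14.8 and 13.9 RPKM. Sema3a, the prototype growth cone repellent, stayed at 1.35 to 2.196 RPKM (limma adjusted p = 0.865). Sema3b, Sema3d, Sema3e and Sema3g averaged under 1 RPKM and were not tested. The most abundant semaphorins on average were Sema6c, at 25.5 to 35.9 RPKM, and Sema4c, at 19.1 to 35.4 RPKM, and neither slope passed. Sema4b, Sema4d, Sema6a and Sema6d ranged between 2.02 and 9.49 RPKM and did not pass.

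Semaphorin receptors were dominated by plexins, and the 2 neuropilins differed in level. Nrp2, the receptor that prefers Sema3f, had 4.79, 9.095, 9.65, 8.05, 11.9 and 12.0 RPKM and rose (log2 0.13 per day, limma adjusted p = 0.0345). Nrp1, the receptor of Sema3a, had 0.221, 0.904, 1.001, 1.11, 1.48 and 0.6804 RPKM and was under the minimum for testing. Plxnb2 was the highest plexin on average, at 23.4 to 36.2 RPKM. Plxna3, Plxna1 and Plxnd1 rose, at log2 0.12, 0.09 and 0.16 per day, and Plxnb1, the Sema4d receptor, fell at log2 -0.10 per day. These 4 plexin calls and that of Nrp2 were each lost without E18 and without at least 1 other stage, with adjusted p-values up to 0.460 for Plxna1. Plxna4, a receptor of Sema3a and Sema6 ligands, had 1.998, 10.1, 12.1, 12.5, 12.4 and 11.6 RPKM, low at E11 alone (limma adjusted p = 0.143). Plxna2 peaked at E13 with 20.5 RPKM, and Plxnb3 had at most 0.142 RPKM.

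Ntn1 and Ntn4 fell while the repulsive netrin receptor Unc5a rose. Ntn1, the founding netrin, had 11.3, 9.99, 6.06, 4.05, 2.24 and 3.55 RPKM. Ntn4, which binds laminins of basement membranes, had 5.65, 6.11, 3.37, 3.23, 2.18 and 1.504 RPKM. Unc5a had 1.86, 6.09, 11.96, 12.4, 17.99 and 22.9 RPKM, 12.3-fold higher at E18 than at E11. The slope was -0.25 ± 0.06 log2 per day for Ntn1, -0.22 ± 0.03 for Ntn4 and 0.38 ± 0.07 for Unc5a, with limma adjusted p-values of 0.0116, 0.00177 and 0.00603. Dcc, the receptor for attraction, had 5.83, 9.96, 8.97, 7.54, 5.81 and 2.69 RPKM and missed the threshold (limma adjusted p = 0.05203), and limma-voom on reads recovered from the RPKM gave 0.0435. Dcc was thus the higher receptor at E11 and E12 and Unc5a the higher one from E13 on. Unc5d reached 5.58 RPKM at E16 after 0.371 at E11, Unc5b stayed at 2.86 to 3.69 RPKM and Unc5c was below 1 RPKM. Ntn3 rose within 1.602 to 3.23 RPKM (limma adjusted p = 0.0416), and lost its call in 7 of 13 other settings, among them without E12, E13, E14, E16 or E18. Ntng2, an anchored netrin-G that binds a leucine-rich repeat partner on other neurons, had 3.52, 18.2, 30.9, 40.3, 38.2 and 22.7 RPKM and peaked at E14, and its slope did not pass (limma adjusted p = 0.168).

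Robo3, which lets commissural axons cross the midline in mouse, showed the steepest fall of all tested members. It had 12.3, 3.73, 1.34, 1.15, 0.261 and 0.505 RPKM, from 4393 reads at E11 and 75 at E16. The slope was -0.41 ± 0.10 log2 per day (limma adjusted p = 0.0135), and E11 was 24.3-fold above E18. The Slit receptors proper behaved otherwise. Robo1 had 1.88, 3.403, 3.66, 2.54, 4.004 and 3.06 RPKM and Robo2 had 2.57, 6.71, 7.06, 5.74, 7.83 and 5.8 RPKM, neither with a slope that passed. Slit1, the highest Slit by RPKM, had 3.15, 8.85, 9.55, 9.62, 9.99 and 8.98 RPKM, with its low value at E11 (limma adjusted p = 0.1797). Slit2 and Slit3 stayed at 0.388 to 0.831 RPKM and 0.314 to 0.858 RPKM. The merged exon length was 25433 bases for Slit2 and 5921 for Slit1. Slit2 had 933 reads at E11 and 536 at E18, against 977 and 2892 for Slit1. Robo4, the endothelial Robo, lay at 0.864 to 1.37 RPKM and did not pass.

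**Figure D2:**
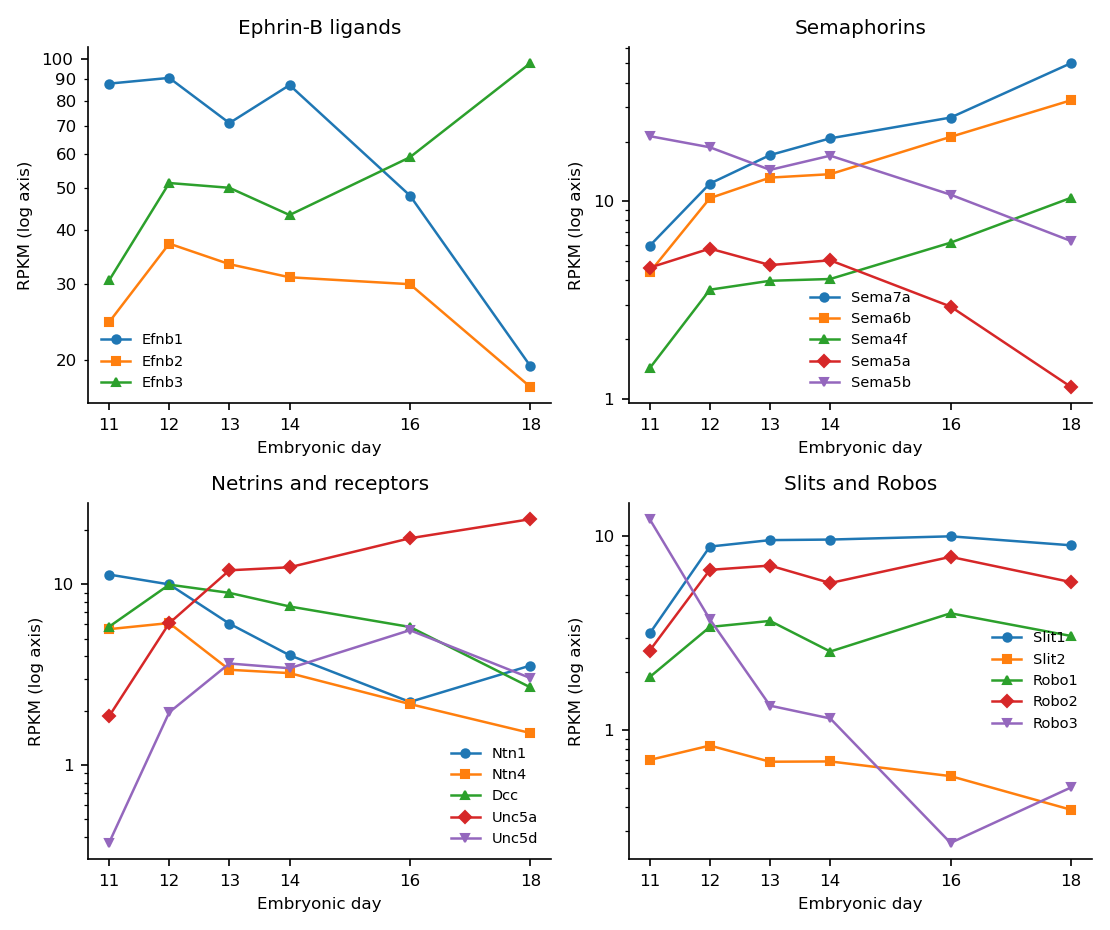
RPKM on a log axis against embryonic day for ephrin-B ligands, chosen semaphorins, netrins with their receptors, and Slits with Robos, 1 library per point. Efnb1 and Efnb3 cross between E14 and E16, Unc5a overtakes Ntn1 and Dcc by E13, and Robo3 has 12.3 RPKM at E11 and 1.34 RPKM at E13.

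The 28 slope calls were not equally firm. In 15 of them (Efna3, Ephb1, Ephb4, Ephb6, Ntn1, Ntn4, Robo3, Sema3c, Sema3f, Sema4f, Sema4g, Sema5b, Sema6b, Sema7a and Unc5a) the call stood in every alternative in which the gene was tested. Without E18, 17 members were called, 15 of them among the 28. Limma-voom called 30, adding Dcc and Sema6c. Of the members tested, 6 rose at every step, namely Sema7a, Sema6b, Sema4f, Efna3, Epha7 and Unc5a, and 0 fell at every step. The highest value stood at E11 for 6 members, at E12 for 12, at E13 for 2, at E14 for 10, at E16 for 10 and at E18 for 16. The 16 members not tested averaged 0.0119 to 0.899 RPKM over the stages.

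Lists of genes that work with these ligands and receptors held slopes in both directions. The lists were chosen with earlier results of these data known, so their contrasts with all genes are only descriptions. Of 26 co-receptors and adhesion partners, all tested, 10 rose and 5 fell, beside 19.6% rising and 25.5% falling over all genes. Lrrc4c and Lrrc4, the netrin-G partners, rose by log2 0.29 and 0.20 per day (limma adjusted p = 0.00123 and 0.00127). Chl1 and Cntn1, adhesion molecules of axons, rose by log2 0.50 and 0.37 per day. Ryk and Fzd3, Wnt receptors with guidance roles, had slopes of -0.11 and -0.15. Of 53 cytoplasmic effectors tested, 20 rose and 8 fell, beside the same shares. Ngef, the exchange factor downstream of EphA receptors, and Rnd1, a GTPase that binds plexins, rose by log2 0.50 and 0.39 per day, and the adaptor Nck1 had a slope of -0.16. The median slope was 0.10 over the co-receptors and 0.06 over the effectors, beside -0.02 over all genes.

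The tables differed in which members were abundant. Each table was normalised on its own, and age, source and handling cannot be told apart between them, so these levels are a description. Nrp1 had 5.13 and 4.99 RPKM in NSC-Pex7sh, against 4.802 and 5.604 RPKM in NSC-Scramble. In the first overexpression table it had 18.4 and 19.4 RPKM in PLA1, against 20.6 and 21.5 RPKM in Ctrl1. In the neuron table it had 14.8 and 14.99 RPKM in Neuron-PLA, against 15.7 and 15.8 RPKM in Neuron-ctrl. Nrp2 ran the other way, at 15.3 and 14.9 RPKM in NSC-Pex7sh, against 12.8 and 19.5 RPKM in NSC-Scramble, but at 0.225 to 2.68 RPKM over the 8 overexpression and control libraries. Epha3 was the highest Eph receptor in each of the 8 overexpression and control libraries, at 40.4 to 64.0 RPKM, but had at most 12.2 RPKM in the stages and 8.06 to 9.13 RPKM in stem cells. Ntn1 and Ntn4 had 8.62 to 12.9 RPKM in stem cells and at most 0.417 RPKM in the overexpression tables, where all 4 netrins were under the minimum. Ntng2 had 25.4 to 29.3 RPKM in stem cells and 1.054 to 2.58 RPKM in the overexpression tables. Plxna4os1, the antisense RNA, had at most 0.0241 RPKM in stages and was at 0 in all 4 stem cell libraries, against 0.438 to 1.81 RPKM in the overexpression tables. In all, 43 members were tested in all 4 tables, and 8 averaged under 1 RPKM in each (Epha1, Epha2, Ntn5, Plxnb3, Sema3b, Sema3d, Sema3e and Sema3g).

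In the first brain set, 13 members differed between PLA1 and Ctrl1, split between directions. Efnb1, Sema5b, Plxnc1, Ntng1, Ephb4 and Plxnb1 were higher in PLA1 than in Ctrl1, and Efnb3, Efna3, Ephb6, Sema4f, Sema4d, Unc5a and Robo1 were lower. Of 48 members tested with limma on log2(RPKM + 1), these 13 (27.1%) were called, beside 29.6% of all 11623 genes, of which 16.3% were higher and 13.2% lower. The median log2 change was 0.01 over the members tested and 0.06 over all genes. The members as a group were therefore called no more often than genes in general, and 24 members were under the minimum.

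Ephrin-B ligands moved apart. Efnb1 had 23.3 and 29.7 RPKM in PLA1, against 14.8 and 15.1 RPKM in Ctrl1. The groups did not overlap, with means of 26.5 ± 4.51 RPKM in PLA1 and 14.9 ± 0.272 RPKM in Ctrl1 (SD, n = 2 each). Lack of overlap was common, in 19 higher and 15 lower of the 48 members tested, and its share over all genes was not computed. The log2 change was 0.78 ± 0.13 (SE, limma adjusted p = 0.00484). Efnb3 had 9.14 and 8.36 RPKM in PLA1, against 12.0 and 14.6 RPKM in Ctrl1, without overlap, at log2 -0.55 ± 0.13 (limma adjusted p = 0.0189). Efnb2 had 7.08 and 10.95 RPKM in PLA1, against 6.51 and 6.73 RPKM in Ctrl1, and was not called (limma adjusted p = 0.174). The ephrin-B receptors also divided: Ephb4 had 7.85 and 6.75 RPKM in PLA1, against 4.63 and 5.51 RPKM in Ctrl1, while Ephb6 had 13.1 and 11.1 RPKM in PLA1, against 16.7 and 17.9 RPKM in Ctrl1. Their log2 changes were 0.45 and -0.48, with limma adjusted p-values of 0.0489 and 0.0193. Efna3 had 0.789 and 0.893 RPKM in PLA1, against 2.01 and 1.76 RPKM in Ctrl1, a log2 change of -0.65 (limma adjusted p = 0.0342).

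Among semaphorins and plexins, Sema5b, Plxnc1 and Plxnb1 were higher in PLA1 and Sema4d and Sema4f lower, and the call of Sema5b stood in every alternative. Sema5b had 15.5 and 15.4 RPKM in PLA1, against 7.88 and 9.16 RPKM in Ctrl1. The PLA1 libraries lay close together and above both controls, at log2 0.79 ± 0.11 (limma adjusted p = 0.003002). Sema5a, its relative, had 7.05 and 8.94 RPKM in PLA1, against 5.503 and 6.503 RPKM in Ctrl1, and did not pass (limma adjusted p = 0.116). Plxnc1, the Sema7a receptor, had 3.86 and 4.24 RPKM in PLA1, against 1.41 and 1.77 RPKM in Ctrl1, at log2 0.96 ± 0.16 (limma adjusted p = 0.005699). Sema7a itself had 0.958 and 1.12 RPKM in PLA1, against 1.601 and 0.994 RPKM in Ctrl1, and the groups overlapped. Plxnb1 had 6.54 and 6.998 RPKM in PLA1, against 4.63 and 4.92 RPKM in Ctrl1, whereas its ligand Sema4d had 9.51 and 8.35 RPKM in PLA1, against 11.8 and 12.4 RPKM in Ctrl1. The log2 changes were 0.43 and -0.40 (limma adjusted p = 0.0411 and 0.0368). Sema4f, a transmembrane semaphorin of neurons, had 1.78 and 2.01 RPKM in PLA1, against 3.29 and 3.603 RPKM in Ctrl1, at log2 -0.62 (limma adjusted p = 0.0246).

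Receptors of netrins and Slits were lower where they were called. Unc5a had 1.16 and 1.27 RPKM in PLA1, against 2.23 and 2.57 RPKM in Ctrl1, at log2 -0.62 ± 0.17 (limma adjusted p = 0.0337). Robo1 had 7.47 and 6.68 RPKM in PLA1, against 9.003 and 11.5 RPKM in Ctrl1, at log2 -0.47 ± 0.14 (limma adjusted p = 0.0446). Robo2 had 10.2 and 9.45 RPKM in PLA1, against 7.85 and 8.71 RPKM in Ctrl1, which did not pass, and Slit1 had 4.95 and 4.24 RPKM in PLA1, against 5.92 and 7.34 RPKM in Ctrl1, with a limma adjusted p of 0.0622. Dcc had 13.6 and 15.1 RPKM in PLA1, against 12.02 and 12.8 RPKM in Ctrl1, and was not called (limma adjusted p = 0.217). Ntng1, an anchored netrin-G of axons, had 2.05 and 2.72 RPKM in PLA1, against 0.647 and 0.652 RPKM in Ctrl1, from 273 and 402 reads in PLA1 and 109 and 113 reads in Ctrl1. Its log2 change was 1.03 ± 0.19 (limma adjusted p = 0.00807), the largest in size among the called members, and its Ctrl1 values alone were under the minimum for testing. Likewise Efna3 was over the minimum only through its Ctrl1 values.

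**Figure D3:**
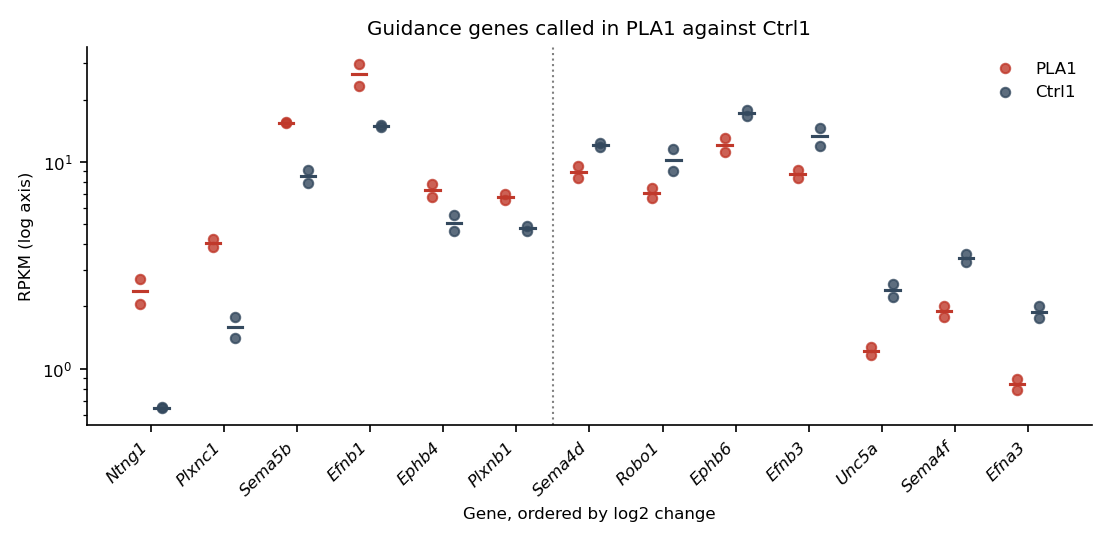
RPKM on a log axis in the 2 PLA1 libraries (left of each pair) and the 2 Ctrl1 libraries (right) for the 13 called members, ordered by log2 change, with short lines at group means and a dotted line between the 6 higher and 7 lower genes. No gene's groups overlap, but the same held for 19 higher and 15 lower of all 48 members tested. Ntng1 and Plxnc1 lie farthest apart.

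Fewer of these calls stood when a library was left out. The count was 6 without Ctrl1 library 1, 4 without Ctrl1 library 2, 11 without PLA1 library 1 (7 of them among the 13) and 5 without PLA1 library 2, and Sema5b, Efnb1, Plxnc1 and Ntng1 were called in each. The calls of Ephb4 and Plxnb1 were lost under both other scalings tried, with adjusted p-values up to 0.295 and 0.235 over all their alternatives, and limma-voom called 17 members, adding Ephb3, Slit1, Plxna4 and Sema5a, beside 3772 genes in all. Ephb3, like Ntng1, was over the minimum only through its PLA1 values. Without a minimum level, Sema5b was the 1 member called.

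Partners and effectors of the same receptors were also compared. These lists were chosen with earlier results of these data known, so their contrasts with all genes are only descriptions. Of 26 co-receptors and adhesion partners tested, 1 was higher and 11 were lower, beside 16.3% higher and 13.2% lower over all genes. Their median log2 change was -0.37, beside 0.06 over all genes. Lrrc4c, the partner of Ntng1, changed by log2 -1.76 ± 0.15 (limma adjusted p = 0.000548). Draxin, a secreted repellent that binds Dcc, changed by log2 -0.98, Cntn2 by -0.73 and Islr2 by -0.90. Rgma, the repellent ligand of neogenin, was the one that rose (log2 0.78, limma adjusted p = 0.01498). Of 51 effectors tested, 3 were higher and 13 lower, with a median of 0.02. The share called in either direction was near the 29.6% of all genes. By direction the calls leaned to lower ones, beside 16.3% higher and 13.2% lower over all genes. Dpysl2, a mediator of Sema3a signalling on microtubules, changed by log2 -1.26 (limma adjusted p = 0.000123). Its relatives Crmp1 and Dpysl5 changed by -0.92 and -0.82, and the kinase Pak1 by -0.76. Dock1 and Rock2, regulators of the actin skeleton, rose by log2 0.63 and 0.66.

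Cell type markers moved in the same comparison. Pan-neuronal markers were lower for 11 of 17 and summed to 798 to 813 RPKM in PLA1, against 1555 to 1572 RPKM in Ctrl1. Mitosis genes were higher for 19 of 20, with 1268 to 1292 RPKM in PLA1 and 821 to 835 RPKM in Ctrl1. Radial glia markers were higher for 10 of 16 and lower for 1, at 583 to 609 RPKM in PLA1 and 469 to 479 RPKM in Ctrl1. Microglia and macrophage markers were lower for 8 of 10, at 188 to 199 RPKM in PLA1 and 422 to 460 RPKM in Ctrl1. Endothelial markers were near 0 in both, at 1.69 to 2.09 RPKM in PLA1 and 1.79 to 1.95 RPKM in Ctrl1, and none was tested. Astrocyte markers summed to 116 to 123 RPKM in PLA1, against 250 to 255 RPKM in Ctrl1, with 1 higher and 1 lower of 4 tested. The choroid plexus markers Ttr and Clic6 were at 0 in all 4 libraries. The part of the other populations in the members' changes was not tested.

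The 9 members called in both the first overexpression set and the stage series all had opposite signs in them. Efnb1, Sema5b, Ephb4 and Plxnb1 were higher in PLA1 and fell with day, and Efnb3, Efna3, Ephb6, Sema4f and Unc5a were lower in PLA1 and rose with day. The same held for most genes outside the family: of 1779 genes called in both, 1598 (89.8%) had opposite signs, so the pattern is not particular to guidance genes. Across the 46 members tested in both, Pearson's r was -0.58, and across 10627 genes it was -0.48. These are descriptions across genes, which are not independent replicates and share the same libraries within each axis. The 2 comparisons have no sample in common.

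**Figure D4:**
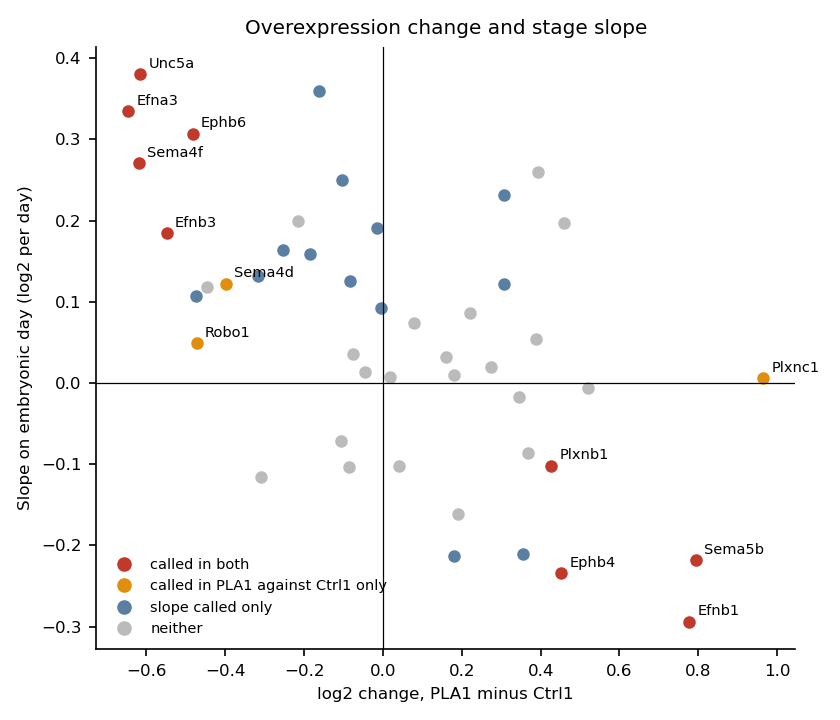
Slope on embryonic day (log2 per day) against the log2 change of PLA1 minus Ctrl1 for the 46 members tested in both, coloured by which call they passed. The 9 members called in both lie at the upper left and lower right, while Plxnc1, at 0.96, has a slope near 0.

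Neuron-PLA and Neuron-ctrl differed in 1 member. Epha3 had 61.7 and 64.02 RPKM in Neuron-PLA, against 40.4 and 44.8 RPKM in Neuron-ctrl. The Neuron-PLA libraries lay above both controls, with means of 62.9 ± 1.63 RPKM in Neuron-PLA and 42.6 ± 3.14 RPKM in Neuron-ctrl (SD, n = 2 each) and a log2 change of 0.55 ± 0.09 (limma adjusted p = 0.0457). It was 1 of 48 members tested (2.08%), beside 0.877% of all 11179 genes, of which 0.376% were higher and 0.501% lower. The call was lost without any 1 of the 4 libraries, when 0 members passed, and adjusted p-values over the alternatives lay between 0.00530 and 0.247. At an unadjusted p under 0.05 there were 10 of the 48 members, beside 17.7% of all genes. Limma-voom called 4 members, adding Robo2, Unc5c and Plxna3, and 198 genes in all. Unc5c was over the minimum only through its Neuron-PLA values.

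Several receptors and ligands had higher values in Neuron-PLA without passing. Unc5c, a netrin receptor, had 2.19 and 2.43 RPKM in Neuron-PLA, against 0.881 and 1.02 RPKM in Neuron-ctrl, and the limma adjusted p was 0.137. Plxna3 had 13.4 and 13.1 RPKM in Neuron-PLA, against 7.697 and 9.07 RPKM in Neuron-ctrl (limma adjusted p = 0.0851). Robo2 had 25.4 and 26.6 RPKM in Neuron-PLA, against 19.1 and 18.2 RPKM in Neuron-ctrl (limma adjusted p = 0.0933). In none of these did the groups overlap, but the same held for 17 higher and 10 lower of the 48 members tested. The share over all genes was not computed, so this count is only a description. Efna4, an ephrin-A ligand, had 18.3 and 18.1 RPKM in Neuron-PLA, against 11.3 and 12.8 RPKM in Neuron-ctrl (limma adjusted p = 0.0802), and Sema4f had 9.66 and 8.89 RPKM in Neuron-PLA, against 6.75 and 6.31 RPKM in Neuron-ctrl (limma adjusted p = 0.159). Lower values stood in Sema6a, with 5.36 and 4.78 RPKM in Neuron-PLA, against 7.61 and 6.79 RPKM in Neuron-ctrl, and in Sema7a, with 1.36 and 1.61 RPKM in Neuron-PLA, against 2.29 and 2.96 RPKM in Neuron-ctrl, and these did not pass either. The median log2 change was 0.10 over the 48 members and 0.00 over all genes.

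Of 25 co-receptors and 51 effectors tested in the neuron set, 0 were called, with medians of 0.04 and 0.08. Markers of other cells differed between these groups. Interneuron and ventral forebrain markers were lower for 6 of 9 and summed to 73.5 to 76.1 RPKM in Neuron-PLA, against 139 to 140 RPKM in Neuron-ctrl. Radial glia markers were lower for 2 of 13, at 249 to 283 RPKM in Neuron-PLA and 428 to 432 RPKM in Neuron-ctrl. Endothelial markers summed to 2.60 to 2.73 RPKM in Neuron-PLA, against 23.7 to 24.5 RPKM in Neuron-ctrl, and Cldn5, the 1 tested, was lower. Robo4, the endothelial member, was at 0 in both Neuron-PLA libraries, against 12 and 58 reads in Neuron-ctrl, and was under the minimum. Pan-neuronal markers summed to 3361 to 3508 RPKM in Neuron-PLA and 3584 to 3619 RPKM in Neuron-ctrl, with 0 of 17 called. Microglia and macrophage markers summed to 82.1 to 90.8 RPKM in Neuron-PLA and 134 to 140 RPKM in Neuron-ctrl, with 1 of 10 lower. The part of these markers in the members' values was not tested.

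The effect of overexpression differed between the sets for 5 members. Each effect is the log2 change of the overexpression libraries against their controls, taken within its own table, and its cause was not tested. A limma term for their difference, first set minus neuron set, called 3 members with a higher effect in the first set and 2 with a lower one, of 48 tested (10.4%), beside 11.7% of all 11705 genes, 6.19% higher and 5.48% lower. Efnb1 had 23.3 and 29.7 RPKM in PLA1, against 14.8 and 15.1 RPKM in Ctrl1. Its neuron-set values were 3.56 and 4.39 RPKM in Neuron-PLA, against 4.74 and 5.41 RPKM in Neuron-ctrl, and the difference between the effects was log2 1.07 ± 0.21 (SE, limma adjusted p = 0.0104). Plxnc1 had 3.86 and 4.24 RPKM in PLA1, against 1.41 and 1.77 RPKM in Ctrl1. The neuron libraries had Plxnc1 at 1.42 and 1.36 RPKM in Neuron-PLA, against 1.61 and 1.58 RPKM in Neuron-ctrl, and the difference between the effects was log2 1.08 ± 0.23 (limma adjusted p = 0.01496). Sema6a, a transmembrane semaphorin, had 8.33 and 8.65 RPKM in PLA1, against 7.398 and 6.34 RPKM in Ctrl1. For Sema6a the neuron libraries had 5.36 and 4.78 RPKM in Neuron-PLA, against 7.61 and 6.79 RPKM in Neuron-ctrl, and the difference between the effects was log2 0.71 ± 0.19 (limma adjusted p = 0.03995).

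Sema4f and Efna4 differed the other way. Sema4f had 1.78 and 2.01 RPKM in PLA1, against 3.29 and 3.603 RPKM in Ctrl1. Its values in the neuron set were 9.66 and 8.89 RPKM in Neuron-PLA, against 6.75 and 6.31 RPKM in Neuron-ctrl, so PLA1 libraries were below their controls and Neuron-PLA libraries above theirs. The difference was log2 -1.07 ± 0.19 (limma adjusted p = 0.00765). Efna4 had 13.6 and 13.4 RPKM in PLA1, against 19.1 and 14.95 RPKM in Ctrl1. The neuron set had Efna4 at 18.3 and 18.1 RPKM in Neuron-PLA, against 11.3 and 12.8 RPKM in Neuron-ctrl, and the difference between the effects was log2 -0.87 ± 0.18 (limma adjusted p = 0.0138). Leaving out Ctrl1 library 1 left 2 called differences, and leaving out PLA1 library 2 left 3. Sema4f was called in every alternative, and Efnb1 in all but the fit without a minimum level. Sema6a lost its call without any 1 of the 8 libraries, with adjusted p-values up to 0.153. Plxnc1 lost its call without Ctrl1 library 1 and without PLA1 library 2, with adjusted p-values up to 0.0828, and Efna4 without Ctrl1 library 1, with 0.0626 as the highest over its alternatives. Of the partners, 0 of 25 co-receptors had a higher effect in the first set and 7 a lower one, among them the adhesion molecule L1cam at log2 -0.84 (limma adjusted p = 0.00192). Of 50 effectors, 2 were higher and 6 lower.

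**Figure D5:**
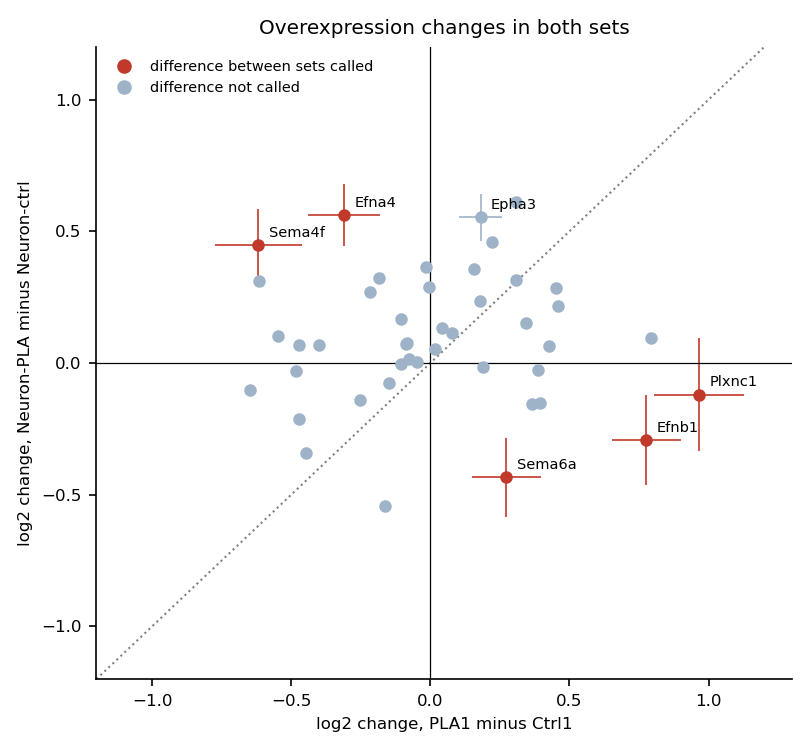
Log2 change of Neuron-PLA minus Neuron-ctrl against that of PLA1 minus Ctrl1 for the 44 members tested in both sets, with a dotted line of equal change; bars are SE for Epha3 and the 5 members whose difference was called. Sema4f and Efna4 lie at the upper left, and Efnb1, Plxnc1 and Sema6a in the lower right.

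With knockdown of Pex7, the receptor that imports an ether lipid enzyme into peroxisomes, 0 of 60 members tested in neural stem cells were called. The share called over all 12482 genes was 0%, with 184 genes and 0 members at an unadjusted p under 0.05, and limma-voom also called 0. The comparison thus cannot show that members were unchanged. Pex7 itself averaged under 1 RPKM over these libraries and was not tested. The smallest unadjusted p-values did not pass. Plxnc1 had 9.61 and 9.45 RPKM in NSC-Pex7sh, against 8.68 and 8.44 RPKM in NSC-Scramble. Efna2 had 13.4 and 13.5 RPKM in NSC-Pex7sh, against 14.6 and 15.0 RPKM in NSC-Scramble. Sema3a had 3.302 and 3.18 RPKM in NSC-Pex7sh, against 2.84 and 2.796 RPKM in NSC-Scramble. These 3 had no overlap between groups. Unc5b had 4.46 and 4.45 RPKM in NSC-Pex7sh, against 4.76 and 5.15 RPKM in NSC-Scramble, and Ephb1 had 8.55 and 8.29 RPKM in NSC-Pex7sh, against 8.52 and 9.697 RPKM in NSC-Scramble. Their limma unadjusted p-values ran from 0.1199 to 0.329, and the adjusted p of each was 0.9998. In all, 3 members were higher and 2 lower without overlap between groups, among them Unc5b and Epha4. The share of all genes without overlap was not computed, so this count is only a description.

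The NSC-Pex7sh libraries resembled each other more closely than the NSC-Scramble libraries did. Across the 60 members, the log2 difference between the pair of libraries had an SD of 0.083 in NSC-Pex7sh and 0.274 in NSC-Scramble. For example, Efnb3 had 52.2 and 53.7 RPKM in NSC-Pex7sh, against 42.2 and 62.1 RPKM in NSC-Scramble. Nrp2 had 15.3 and 14.9 RPKM in NSC-Pex7sh, against 12.8 and 19.5 RPKM in NSC-Scramble. Ntn4 had 10.5 and 9.58 RPKM in NSC-Pex7sh, against 12.9 and 8.62 RPKM in NSC-Scramble. In these the NSC-Pex7sh values lay between the NSC-Scramble ones. Only 15 of the 60 were higher in NSC-Scramble 1 than in NSC-Scramble 2. The median log2 change of the members was -0.01 with both controls, -0.10 without NSC-Scramble 1 and 0.08 without NSC-Scramble 2, so its sign depended on the control library used. Pan-neuronal markers summed to 1909 to 1928 RPKM in NSC-Pex7sh and 1618 to 2157 RPKM in NSC-Scramble, and mitosis genes to 310 to 339 RPKM in NSC-Pex7sh and 236 to 423 RPKM in NSC-Scramble. Of 25 co-receptors and 54 effectors tested, 0 were called.

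The stem cell libraries carried many of these genes at levels well above the minimum. They also held pan-neuronal markers at 1618 to 2157 RPKM, beside radial glia markers at 1011 to 1423 RPKM. Which cells carried each gene was not tested. Plxnb2 had 41.3 and 41.1 RPKM in NSC-Pex7sh, against 44.8 and 38.1 RPKM in NSC-Scramble. Efnb2 had 44.9 and 49.3 RPKM in NSC-Pex7sh, against 43.1 and 46.7 RPKM in NSC-Scramble. The values of both groups overlapped or lay close together in each. Slit1 had 14.7 and 14.4 RPKM in NSC-Pex7sh, against 12.6 and 17.6 RPKM in NSC-Scramble. Its receptor Robo1 had 14.1 and 14.6 RPKM in NSC-Pex7sh, against 13.2 and 15.2 RPKM in NSC-Scramble, and Robo2 had 17.1 and 16.2 RPKM in NSC-Pex7sh, against 13.7 and 18.9 RPKM in NSC-Scramble. RNA of ligand and receptors was thus present together in these libraries, though not necessarily in the same cells. Dcc had 10.8 and 11.7 RPKM in NSC-Pex7sh, against 9.68 and 11.8 RPKM in NSC-Scramble, and its ligand Ntn1 had 11.3 and 10.7 RPKM in NSC-Pex7sh, against 12.3 and 8.75 RPKM in NSC-Scramble. The 12 members not tested there were Epha1, Epha2, Robo3, Robo4, Plxna4os1, Efna1, Ntn5, Plxnb3, Sema3b, Sema3d, Sema3e and Sema3g.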

How the data were processed

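The 4 deposited tables hold RPKM made by the authors; no header names the unit, which was read from the values. The submitters' processing notes name STAR 2.7.9a, HTSeq 0.6.0 and the build mm10. RPKM multiplied by merged exon lengths of GENCODE M21 gave whole reads within 0.01 for 97.5% to 97.8% of nonzero values, and all 72 members were recovered. Libraries of 2 ug total RNA were sequenced, per the labels' protocols. Each table was fitted on its own (limma 3.58.1 with a mean trend, R 4.3.3) on log2(RPKM + 1), which understates changes of low genes. Genes averaging 1 RPKM or more entered, and a Benjamini-Hochberg adjusted p under 0.05 over all of them was a call. The interaction used both overexpression tables. Stage levels have no replicate error. Fits were also run on simulated data, with no result given here, so nothing about their accuracy in these libraries follows from it. Alternatives were pseudocounts of 0.1 and 5, no minimum or 5 RPKM, median-ratio and upper-quartile scaling, limma-voom on recovered reads, a replicate block, stage rank, and leaving out each library. All called members were named, with partners and the most abundant members; where none was called, the 5 of smallest p. The members and lists were chosen with earlier results of these data known. Figures used matplotlib 3.10.9.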

Additional observations from a re-analysis of the deposited data

Results flagged for a closer look

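The effect of overexpression differed between the first brain set and the neuron set in 5 members, by a limma test of the difference itself (first set minus neuron set, log2, adjusted over 11705 genes). The difference was 1.07 for Efnb1, 1.08 for Plxnc1 and 0.71 for Sema6a, whose effect was higher in the first set. It was -1.07 for Sema4f and -0.87 for Efna4, whose effect was lower there. Over all genes 11.7% were called, so 5 of 48 members is near that share. The cause was not tested.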

How the results depend on the processing

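No single-gene value changed sign: of 626 values of called members under the alternatives, 513 kept their call and 113 lost it. The groups did not overlap for the 13 members called in PLA1 against Ctrl1 or for Epha3 in the neuron set. For these, leaving out 1 library could not have reversed the sign. The counts of called members moved most as follows. Without a minimum level, PLA1 against Ctrl1 gave 1, the neuron set 0 and the difference between sets 1. With a minimum of 5 RPKM, PLA1 against Ctrl1 gave 8, of 28 tested, and the neuron set 2. The neuron set also gave 0 with a pseudocount of 0.1 and 4 with limma-voom. Leaving out 1 library gave 4 to 11 for PLA1 against Ctrl1, 0 for the neuron set, 2 to 5 for the difference between sets and 17 to 28 for the slope, where the 17 came without E18. For NSC-Pex7sh against NSC-Scramble the count was 0 in each setting. The cause of these shifts was not tested, beyond fewer samples or another set of genes tested.

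The labels do not say whether libraries with the same number are paired. Over genes, their deviations correlated at 0.010 in the stem cells, 0.099 in PLA1 and Ctrl1 and 0.047 in the neuron set. These values rest on 1 difference between libraries per group and cannot decide whether the libraries were paired. With the replicate block, 16 members were called in PLA1 against Ctrl1, 0 in the neuron set, 0 in the stem cells and 4 for the difference between sets. With 2 libraries a group or 1 a stage, and 16147910 to 28104927 reads in the perturbation libraries, small changes and members under 1 RPKM could not be tested.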
